A study of Mus musculus with 14 samples.

Results

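The genes described here are 9 members of the Notch pathway measured in mouse liver cells: the receptors Notch1, Notch2 and Notch3, the ligands Jag1, Jag2 and Dll4, and the target genes Hes1, Hey1 and Heyl. They were chosen by name, with earlier results of these data known. All 9 were found in the deposited gene tables of 21878 genes, and all 9 passed the filter on low counts that left 14100 genes for testing. RNA was sequenced from 14 libraries of C57BL/6 hepatocytes in 7 groups of 2. Freshly isolated hepatocytes were profiled with and without Yap (groups FH Yap-/- and FH), and cultured hepatocytes were profiled as BM at day 1, day 3 and week 3 (BM 1D, BM 3D and BM 3W), as BM without Yap at week 3 (BM 3W Yap-/-), and as LBDXL at week 3 (LBDXL 3W). The labels do not spell out BM or LBDXL, nor do they give the way Yap was deleted or the animals behind each library. The p-values therefore rest on the spread within pairs of libraries, which may be technical. Yap1 encodes YAP, the transcriptional co-activator at the end of the Hippo pathway.

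Notch receptors are cell-surface proteins that are activated by ligands on a neighbouring cell. Ligand binding exposes the receptor to ADAM proteases and then to gamma-secretase, which frees the intracellular part to enter the nucleus, where it joins the DNA-binding protein RBPJ and Mastermind co-activators and turns on Hes and Hey repressor genes. In the liver the pathway is known for its part in bile duct formation, in which Jag1 and Notch2 are needed, and several cell types of the organ express its members: Notch1, Notch4 and Dll4 in endothelial cells, Notch3, Jag1 and Heyl in mural and stellate cells, and Notch2 in hepatocytes and bile duct cells.

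The 9 genes lie on 6 chromosomes in the GRCm38.p6 build. Among the receptors, Notch1 (NCBI gene 18128) spans chromosome 2, 26457902 to 26503822, Notch2 (18129) chromosome 3, 98013538 to 98150367, and Notch3 (18131) chromosome 17, 32120820 to 32166896. Among the ligands, Jag1 (16449) spans chromosome 2, 137081451 to 137116520, Jag2 (16450) chromosome 12, 112907803 to 112929812, and Dll4 (54485) chromosome 2, 119325784 to 119335666. The targets Hes1 (15205), Hey1 (15213) and Heyl (56198) lie on chromosome 16 from 30065357 to 30067796, on chromosome 3 from 8663359 to 8667038, and on chromosome 4 from 123233556 to 123249870.

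The promoters of 3 genes are shown because their genes carry the main contrasts below: Notch1, the receptor that rose in every culture without a Yap deletion, Notch3, the receptor with the widest range of levels, and Jag1, the ligand whose pattern was most like that of Hes1. Each sequence is the 250 bases before the annotated start site, from RefSeq for GRCm38.p6, 5′ to 3′ on the minus strand, which is the strand of all 3 genes (chr2:26503823-26504072, chr17:32166891-32167140 and chr2:137116521-137116770). Capitals mark matches to the TEAD core GGAATG, read on either strand.
Notch1: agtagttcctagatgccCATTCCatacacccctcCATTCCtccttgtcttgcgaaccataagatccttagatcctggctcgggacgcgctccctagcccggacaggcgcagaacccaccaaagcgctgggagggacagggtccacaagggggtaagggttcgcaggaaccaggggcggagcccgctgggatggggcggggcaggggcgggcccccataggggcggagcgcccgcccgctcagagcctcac
Notch3: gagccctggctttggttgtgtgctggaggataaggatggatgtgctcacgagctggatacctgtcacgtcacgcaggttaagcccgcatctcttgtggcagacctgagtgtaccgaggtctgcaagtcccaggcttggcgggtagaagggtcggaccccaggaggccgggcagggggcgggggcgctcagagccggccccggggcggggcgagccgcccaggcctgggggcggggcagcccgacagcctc
Jag1: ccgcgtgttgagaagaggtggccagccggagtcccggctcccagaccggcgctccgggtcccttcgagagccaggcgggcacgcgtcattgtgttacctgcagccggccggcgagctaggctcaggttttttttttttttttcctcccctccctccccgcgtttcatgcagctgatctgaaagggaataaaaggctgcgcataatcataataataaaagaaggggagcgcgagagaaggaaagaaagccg
RefSeq promoters were found for 6 of the 9 members (Hes1, Hey1 and Heyl are named only), and windows of 250 bases before to 50 bases after the start site were searched on both strands for the RBPJ core TGGGAA, the TEAD core GGAATG and the AP-1 core TGANTCA. The RBPJ core was present in 25.6%, the TEAD core in 14.7% and the AP-1 core in 7.81% of 32817 promoters of that length. The matches in these members were 2 TEAD cores in the Notch1 promoter, which start 233 and 216 bases before the start site and do not overlap. A match is a run of letters and not a measured binding site.

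Depth ran from 15501005 to 21220365 counts a library, and levels are given as CPM, counts scaled to library size, with TMM factors of 0.648 to 1.69. Libraries of a group differed by more than sampling noise in all 7 groups (chi-square per degree of freedom 4.04 to 235). Yap1 was at 6.66 and 7.75 CPM in BM 3W Yap-/- against 80.2 and 95.5 CPM in BM 3W, and at 23.1 and 26.5 CPM in FH Yap-/- against 87.6 and 97.6 CPM in FH. The 13 hepatocyte markers were present in every library, with a summed level of 122377 and 104111 CPM in BM 3W Yap-/-, 216774 and 172745 CPM in LBDXL 3W, 33975 and 3809.9 CPM in BM 3W, and 233632 to 271019 CPM in the 4 freshly isolated libraries. These are bulk samples, in which fewer cells of a type and less RNA per cell cannot be told apart.

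Compared per transcript length, as the authors' FPKM, Notch2 was the leading receptor in all 7 groups, with Notch1 nearly level in BM 3W Yap-/- (5.45 FPKM for Notch2 and 5.40 FPKM for Notch1). Of the summed FPKM of the 4 receptors, Notch2 held 58.7 ± 12.8% in BM 3W and 84.2 ± 1.35% in FH (SD, n = 2 each). Notch3 held 26.1 ± 13.9% in BM 3W, and at most 1.85% in the mean of any other group. In BM 3W Yap-/- the share of Notch1 was 48.3 ± 0.354% and that of Notch2 48.7 ± 0.814%, against 14.7 ± 1.06% for Notch1 in BM 3W. Among the 4 ligands, Jag1 held 39.9 ± 4.69% in BM 3W Yap-/- against 88.1 ± 1.73% in BM 3W, and Dll1, a ligand outside the 9 members, held 48.3 ± 4.60% in BM 3W Yap-/- against 1.99 ± 0.803% in BM 3W. Dll1 was the leading ligand of freshly isolated cells too, at 75.2 ± 2.24% in FH Yap-/- and 62.4 ± 1.06% in FH, both at low levels (at most 1.43 FPKM). Hes1 was the most abundant target in each group, with a mean of 32.7 FPKM in BM 3W and 0.880 FPKM in FH.

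**Figure D1:**
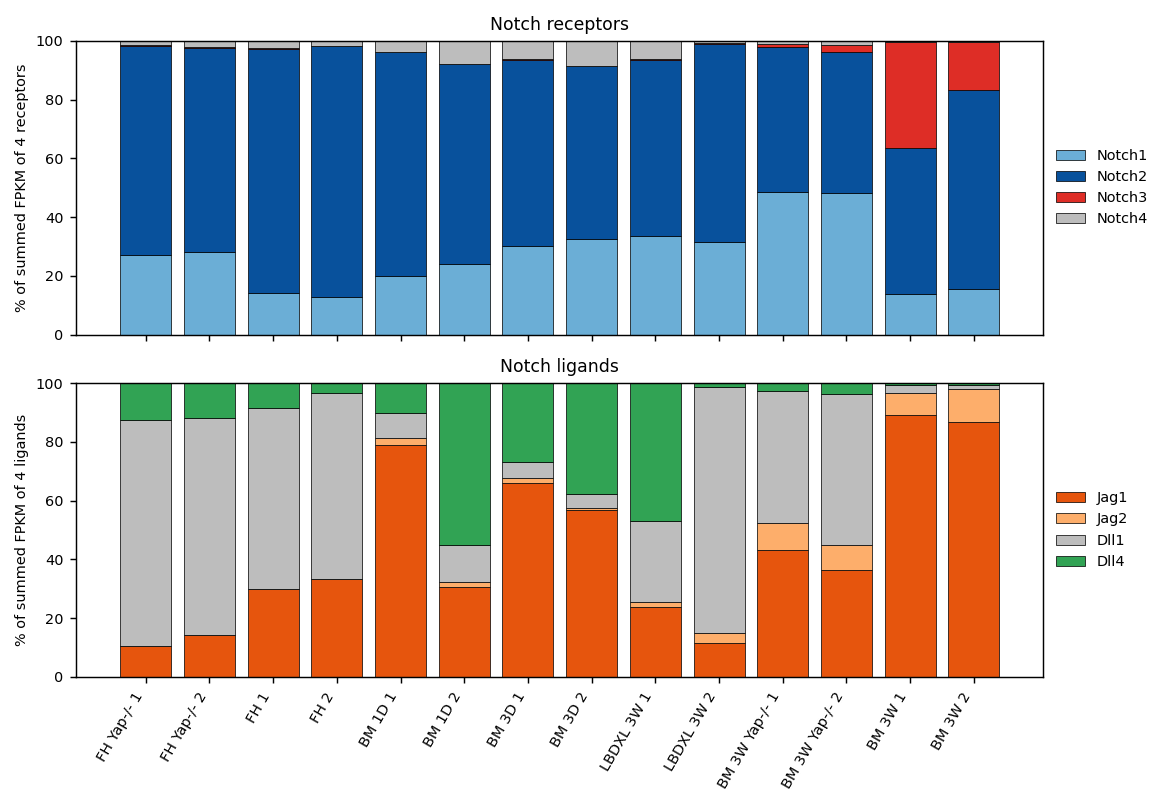
Share of each gene in the summed FPKM of 4 Notch receptors (upper panel, %) and of 4 Notch ligands (lower panel, %), with 1 bar for each of the 14 libraries. Notch3 is visible as a large share only in the 2 BM 3W bars, Notch1 and Notch2 are nearly equal in the 2 BM 3W Yap-/- bars, and the 2 LBDXL 3W bars differ in their share of Dll4.

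Notch1 rose in each of the 4 comparisons of cultured with freshly isolated cells, and it was the only receptor to do so. Its level was 10.7 and 8.71 CPM in FH, 22.2 and 37.3 CPM in BM 1D, 41.1 and 63.9 CPM in BM 3D, and 34.2 and 33.4 CPM in BM 3W. All 6 BM libraries lay above both FH libraries, and the BM 3W pair lay within the range of the BM 1D pair. The log2 fold change against FH was 1.61 ± 0.29 in BM 1D (standard error, adjusted p = 0.00122 by edgeR's quasi-likelihood test), 2.43 ± 0.29 in BM 3D (adjusted p = 0.000172) and 1.80 ± 0.29 in BM 3W (adjusted p = 0.00037). These 3 calls held under every alternative.

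Notch2, the receptor with the highest level in BM and freshly isolated cells, had the smallest fold changes of the 3 receptors against FH. It was at 73.3 and 65.6 CPM in FH, 102 and 115 CPM in BM 1D, 103 and 128 CPM in BM 3D, and 139 and 166 CPM in BM 3W. The BM libraries all lay above FH, and the BM 3D pair overlapped the BM 1D pair. The log2 fold change against FH was 0.65 ± 0.20 in BM 1D (adjusted p = 0.0237), 0.73 ± 0.20 in BM 3D (adjusted p = 0.0141) and 1.14 ± 0.20 in BM 3W (adjusted p = 0.000712). The BM 3W call held under every alternative. The BM 1D call was lost without BM 1D 2 or either FH library, with adjusted p from 0.000143 to 0.167 over all alternatives, and the BM 3D call was lost without BM 3D 2 or either FH library, with adjusted p from 8.87e-05 to 0.134.

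Notch3, a receptor known from mural cells, had at most 10 counts in every library outside BM 3W and BM 3W Yap-/-. It had 2 and 1 counts in FH, 0 and 0 in BM 1D, 10 and 0 in BM 3D, and 1665 and 897 counts in BM 3W. A count of 0 in BM 1D allows up to 3 counts, or 0.135 and 0.156 CPM. In BM 3W the level was 57.1 and 26.9 CPM, so that 1 library was 2.13 times the other. Summed over libraries and scaled, the BM 3W level was 344 times that of FH, with a 95% exact interval of 118 to 1670 that covers counting error only. The fitted log2 change was 8.39 ± 1.03 against FH (adjusted p = 0.000101) and 7.57 ± 0.93 against BM 3D (adjusted p = 0.000488). Both calls held under every alternative, though without BM 3W 1 they were 7.74 and 6.93, and against BM 3D the fitted value was 12.67 without BM 3D 1 and 6.67 without BM 3D 2. Notch3 did not pass in BM 1D or BM 3D against FH.

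**Figure D2:**
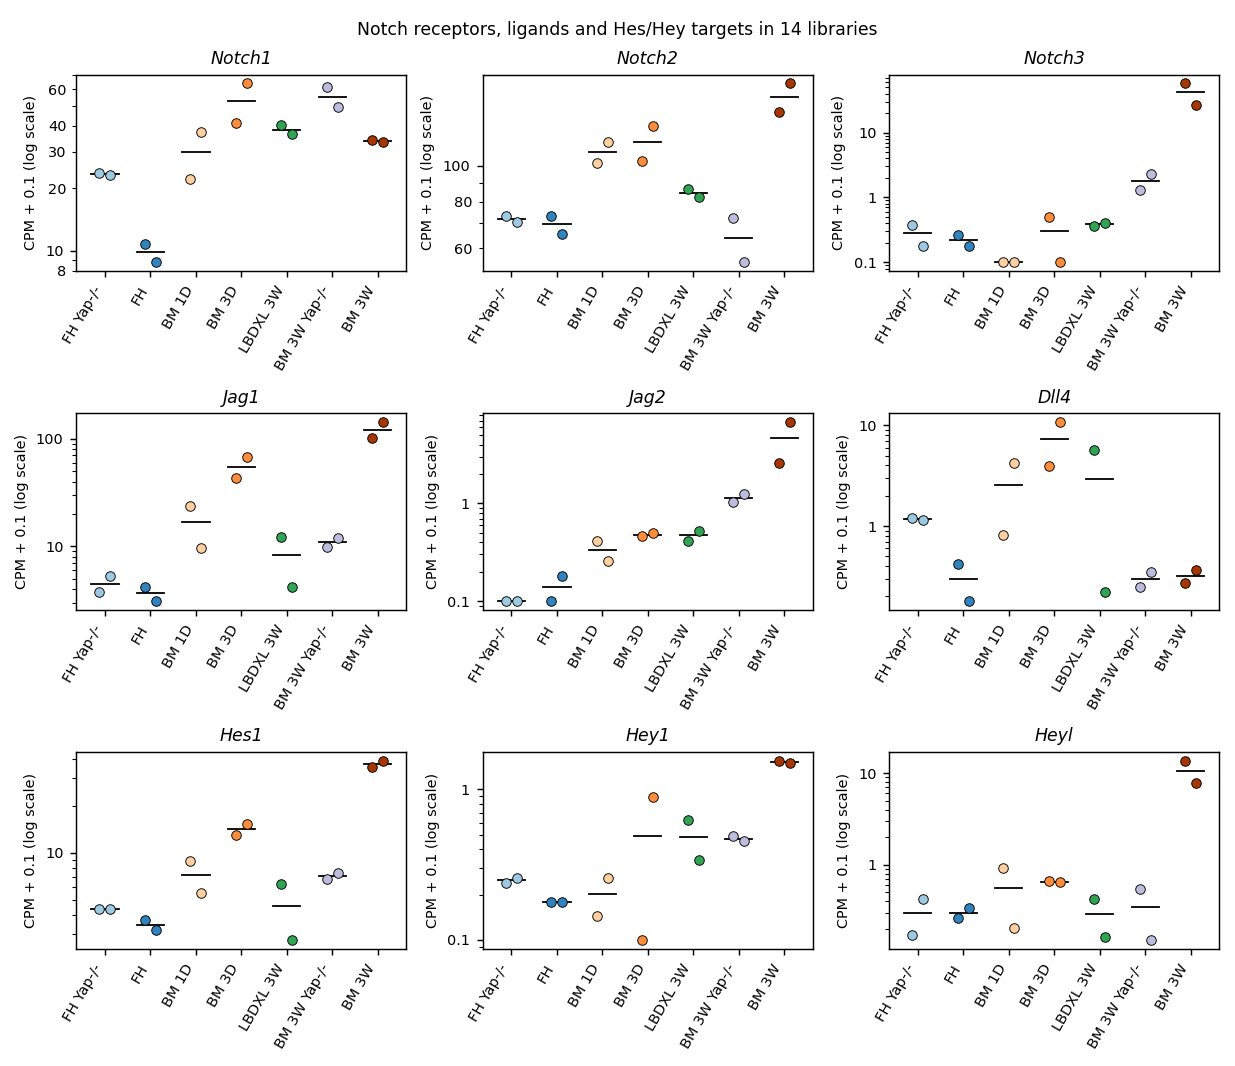
Level of each of the 9 members in 14 libraries, as TMM-scaled CPM plus 0.1 on a log scale, with 2 points a group and a line at the group mean. BM 3W is the highest group for Notch2, Notch3, Jag1, Jag2, Hes1, Hey1 and Heyl, and the 2 LBDXL 3W libraries are far apart for Dll4.

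Jag1, the ligand tied to bile duct formation, rose against FH at all 3 times of BM culture. Its level was 4.14 and 3.01 CPM in FH, 23.8 and 9.53 CPM in BM 1D, 42.7 and 67.0 CPM in BM 3D, and 101 and 142 CPM in BM 3W. The ranges of the 4 groups did not overlap. Against FH the log2 fold change was 2.22 ± 0.55 in BM 1D (adjusted p = 0.00767), 3.94 ± 0.58 in BM 3D (adjusted p = 0.000476) and 5.08 ± 0.60 in BM 3W (adjusted p = 5.51e-05). The step from day 1 to day 3 (1.71 ± 0.51, adjusted p = 0.0786) and that from day 3 to week 3 (1.15 ± 0.50, adjusted p = 0.118) did not pass. The BM 1D call was lost without BM 1D 1, where the change was 1.41, or without FH 2, with adjusted p from 0.000415 to 0.0734 over all alternatives. The other 2 calls held throughout.

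Jag2, another Jagged ligand, was nearly undetected in freshly isolated cells. It had 0 and 1 counts in FH, 7 and 3 in BM 1D, 9 and 8 in BM 3D, and 73 and 222 in BM 3W, which is 2.50 and 6.65 CPM in BM 3W. The 2 BM 3W libraries differed 2.66 times and both lay above all others. The scaled level in BM 3W was 119 times that of FH, with a 95% exact interval of 21.2 to 4712 for counting error. Jag2 rose in BM 3W against FH (fitted log2 6.64 ± 1.03, adjusted p = 0.000398), a call that held in every alternative giving it a value, with 5.76 without BM 3W 2, 5.75 without FH 1 and 9.59 without FH 2. It also rose against BM 3D (3.57 ± 0.75, adjusted p = 0.00799), a call lost when BM 3W 2 was left out, where the change was 2.70 (adjusted p from 0.000105 to 0.0911 over the alternatives).

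Dll4, a ligand known from endothelial cells, had a different course. It was at 0.318 and 0.0791 CPM in FH, 0.722 and 4.17 CPM in BM 1D, 3.89 and 10.6 CPM in BM 3D, and 0.171 and 0.270 CPM in BM 3W. Both BM 3D libraries lay above FH and above BM 3W, and the BM 1D pair was spread over the gap between. Dll4 rose in BM 3D against FH by 5.15 ± 1.51 (adjusted p = 0.0192) and fell by 4.99 ± 1.39 in BM 3W against BM 3D (adjusted p = 0.025). Both changes kept their direction, but the calls were lost when some single libraries of the compared groups were left out. The first was lost without BM 3D 2 (4.25), FH 1 (6.42) or FH 2 (4.48), with adjusted p from 0.000814 to 0.129, and the second without BM 3D 2 (-4.10) or either BM 3W library (-4.72 and -5.35), with adjusted p from 0.00108 to 0.128. In BM 3W against FH the change was 0.16 ± 1.61 (adjusted p = 0.944).

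Hes1, the most abundant target gene here, followed the same order as Jag1 in the BM time course. It was at 3.58 and 3.09 CPM in FH, 8.76 and 5.42 CPM in BM 1D, 12.9 and 15.1 CPM in BM 3D, and 35.2 and 38.5 CPM in BM 3W. No group overlapped another. The log2 fold change against FH was 1.09 ± 0.38 in BM 1D (adjusted p = 0.0383), 2.07 ± 0.38 in BM 3D (adjusted p = 0.00176) and 3.46 ± 0.40 in BM 3W (adjusted p = 4.77e-05). The step from BM 3D to BM 3W was 1.40 ± 0.36 (adjusted p = 0.0178) and was lost without any 1 of the 4 libraries compared (adjusted p from 0.000585 to 0.0939, change 1.28 to 1.51). The BM 1D call was lost in 10 of 24 alternatives, among them the removal of BM 1D 1 or either FH library (adjusted p from 0.00108 to 0.239).

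The other 2 targets were at low levels except in BM 3W. Heyl, a Hey-family repressor known from mural cells, was at 0.159 and 0.237 CPM in FH, 0.812 and 0.104 CPM in BM 1D, 0.567 and 0.542 CPM in BM 3D, and 13.4 and 7.67 CPM in BM 3W. Both BM 3W libraries were above all others. Heyl rose by 5.69 ± 1.13 against FH (adjusted p = 0.00142) and by 4.23 ± 0.98 against BM 3D (adjusted p = 0.011). The second call was lost without BM 3W 1 or either BM 3D library (change 3.77 to 4.26, adjusted p up to 0.061 and down to 6.82e-06 over the alternatives). Hey1 had 1 and 1 counts in FH, 1 and 3 in BM 1D, 0 and 16 in BM 3D, and 42 and 47 in BM 3W. The BM 3W libraries agreed closely, at 1.44 and 1.41 CPM, 17.9 times FH with a 95% exact interval of 4.82 to 150. Its change against FH was 4.06 ± 1.41 (adjusted p = 0.0282), and the call was lost without either BM 3W or either FH library (adjusted p from 9.89e-05 to 0.13).

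Counted over the 9 members, 4 rose and 0 fell in BM 1D against FH, where 23.6% of all tested genes rose and 20.2% fell. In BM 3D against FH 5 rose and 0 fell, against 22.5% and 17.9% of all genes. In BM 3W against FH 8 rose and 0 fell, against 33% and 26.1% of all genes, and the members' median log2 change was 4.06 where that of all genes was 0.17. That median was the value of Hey1, 1 of the 8. Hey1 passed the filter on low counts only through BM 3W, the group where it was high. In BM 3W against BM 3D 4 rose and 1 fell, against 13.5% and 10.9% of all genes. In BM 3D against BM 1D none of the 9 passed in edgeR, where 3.67% of genes rose and 1.6% fell, 4 members had an unadjusted p below 0.05 (Notch1, Notch3, Jag1 and Hes1), and DESeq2 called 2. The count of 4 in BM 1D against FH was 2 without BM 1D 1 or FH 1 and 1 without FH 2. The count of 5 in BM 3D against FH was 3 without BM 3D 2, FH 1 or FH 2, and that of 5 in BM 3W against BM 3D was 2 without BM 3W 1 or BM 3W 2 and 3 without BM 3D 1 or BM 3D 2. In BM 3D against BM 1D 2 members passed when 1 LBDXL 3W library was left out and 1 when BM 1D 2 was.

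The split of all genes depends on the scaling, while no called member changed direction under either other scaling. Scaled by total counts alone, the median of all genes moved up by 0.92 in BM 1D, 0.94 in BM 3D, 1.29 in BM 3W and 0.47 in LBDXL 3W against FH, and by 0.34 in BM 3W against BM 3D. It moved by -0.82 in LBDXL 3W against BM 3W, by -0.64 in BM 3W Yap-/- against BM 3W and by -0.72 in the interaction given below. The split in BM 3W against FH was then 9282 higher and 1364 lower, beside 4653 and 3675 with TMM. It was 7064 and 1351 beside 3328 and 2842 in BM 1D against FH, 7575 and 1038 beside 3175 and 2530 in BM 3D against FH, and 3593 and 822 beside 1656 and 1353 in LBDXL 3W against FH. In BM 3W against BM 3D it was 2540 and 704, or 2092 and 1069 with DESeq2 size factors, beside 1906 and 1541. In LBDXL 3W against BM 3W total counts gave 1135 and 6650 beside 2980 and 3343, in BM 3W Yap-/- against BM 3W 798 and 5053 beside 2117 and 2342, and in the interaction 463 and 2780 beside 1133 and 1247. DESeq2 size factors moved the median by 0.13 in BM 3W against BM 3D and by -0.15 to -0.13 in the last 3 of these comparisons.

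LBDXL cells at week 3 had lower levels of 6 of the 9 members than BM cells at the same time. Notch3 was at 0.264 and 0.302 CPM in LBDXL 3W against 57.1 and 26.9 CPM in BM 3W, and its log2 change was -7.18 ± 0.92 (adjusted p = 0.000294). Jag1 was at 12.2 and 4.11 CPM in LBDXL 3W against 101 and 142 CPM in BM 3W, with a change of -3.89 ± 0.56 (adjusted p = 0.000401). Hes1 was at 6.24 and 2.66 CPM in LBDXL 3W against 35.2 and 38.5 CPM in BM 3W, with a change of -3.04 ± 0.39 (adjusted p = 0.000205). Neither culture overlapped the other for these 3 genes, and LBDXL 3W 1 was above LBDXL 3W 2 for Jag1 and Hes1. Heyl fell by 5.72 ± 1.10 (adjusted p = 0.00209), with 0.317 and 0.0604 CPM in LBDXL 3W against 13.4 and 7.67 CPM in BM 3W. These 4 calls held in every alternative that gave a value. Without BM 3W 1 Notch3 was at -6.53, without LBDXL 3W 1 Jag1 was at -4.88, Hes1 at -3.78 and Heyl at -7.30, and without LBDXL 3W 2 Heyl was at -5.02.

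The remaining receptors and ligands split between the cultures. Notch2 was at 86.6 and 82.5 CPM in LBDXL 3W against 139 and 166 CPM in BM 3W, a fall of 0.86 ± 0.20 on the log2 scale (adjusted p = 0.00614) that was lost when the 2 groups were fitted alone (adjusted p from 2.52e-05 to 0.0654 over all alternatives). Jag2 was at 0.317 and 0.423 CPM in LBDXL 3W against 2.50 and 6.65 CPM in BM 3W, with a change of -3.61 ± 0.76 (adjusted p = 0.00418) that was lost at -2.74 without BM 3W 2 (adjusted p from 6.5e-05 to 0.125). Notch1 did not pass, with 40.2 and 36.4 CPM in LBDXL 3W against 34.2 and 33.4 CPM in BM 3W, a difference of 0.18 ± 0.27 (adjusted p = 0.62) whose sign turned with total counts alone (-0.64) and in the 3 fits of FPKM (-0.63 to -0.51). The limma fit of log2(FPKM + 1) with its filter called Notch1 lower in LBDXL 3W (-0.51, adjusted p = 0.0437). The other reversed settings did not pass (adjusted p from 0.0558 to 0.0611). In all, 6 members fell and 1, Dll4, rose, against 23.7% and 21.1% of all genes, and 5 of 9 still passed with the fewest calls left when 1 library was removed. Against FH, LBDXL 3W had 1 member up and none down, where 11.7% of genes rose and 9.6% fell. That member was Notch1, with 40.2 and 36.4 CPM in LBDXL 3W against 10.7 and 8.71 CPM in FH (1.98 ± 0.29, adjusted p = 0.00111), a call that held throughout. The count was 3 when LBDXL 3W 2 was left out.

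**Figure D3:**
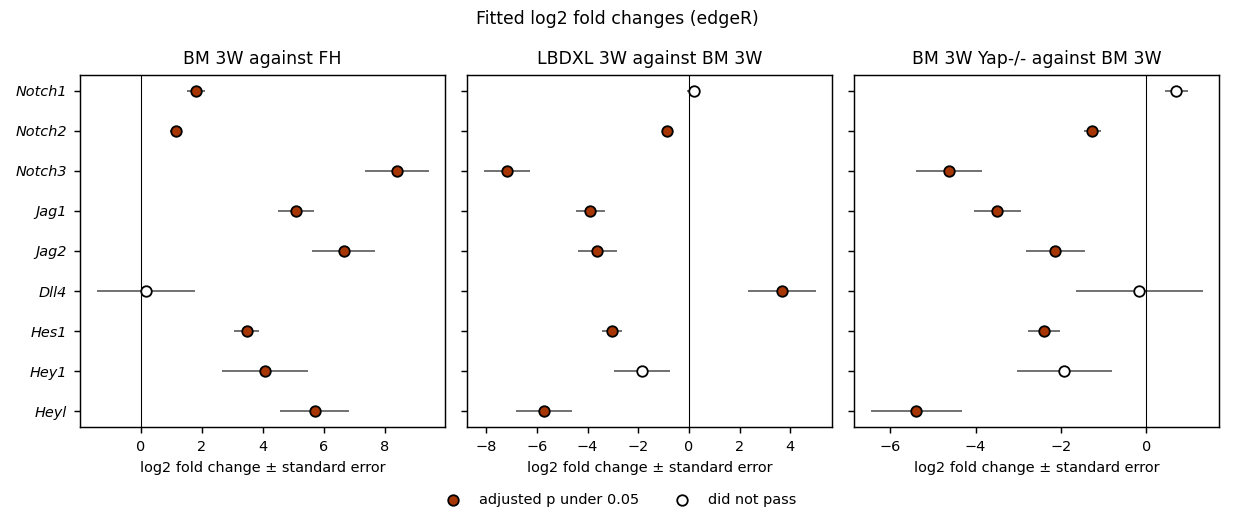
Fitted log2 fold change of each member with its standard error in BM 3W against FH, LBDXL 3W against BM 3W, and BM 3W Yap-/- against BM 3W. Filled points passed at an adjusted p under 0.05. Notch3 and Heyl have the lowest values in both right-hand panels, and Notch1 is above 0 in all 3.

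Without Yap, BM cells at week 3 had lower levels of 6 of the 9 members, while Notch1 was not lower. Jag1 was at 9.86 and 11.8 CPM in BM 3W Yap-/- against 101 and 142 CPM in BM 3W, with a log2 change of -3.49 ± 0.55 (adjusted p = 0.00138). Hes1 was at 6.71 and 7.29 CPM in BM 3W Yap-/- against 35.2 and 38.5 CPM in BM 3W, with a change of -2.39 ± 0.37 (adjusted p = 0.00138). Notch2 was at 72.5 and 54.9 CPM in BM 3W Yap-/- against 139 and 166 CPM in BM 3W, with a change of -1.26 ± 0.20 (adjusted p = 0.00158). The 2 genotypes did not overlap for any of these genes, and the Notch2 libraries without Yap overlapped the FH range.

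Notch3 and Heyl showed the deepest falls. Notch3 was at 1.21 and 2.16 CPM in BM 3W Yap-/- against 57.1 and 26.9 CPM in BM 3W (-4.63 ± 0.77, adjusted p = 0.00242). Heyl was at 0.437 and 0.0503 CPM in BM 3W Yap-/- against 13.4 and 7.67 CPM in BM 3W (-5.39 ± 1.07, adjusted p = 0.0043). Both genotypes were apart for each gene, and Notch3 without Yap was still above every LBDXL and freshly isolated library. The calls of these 5 genes held in every alternative that gave a value, with Notch3 at -3.98 without BM 3W 1, and Heyl at -7.52 and -4.57 without the first and the second BM 3W Yap-/- library. Jag2 was at 0.923 and 1.16 CPM in BM 3W Yap-/- against 2.50 and 6.65 CPM in BM 3W (-2.13 ± 0.69, adjusted p = 0.0413), a call lost without BM 3W 2 (-1.26), without either BM 3W Yap-/- library or either FH Yap-/- library, and without the low-count filter (adjusted p from 0.00114 to 0.344).

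The other 3 members did not pass. Notch1 was at 61.4 and 49.0 CPM in BM 3W Yap-/- against 34.2 and 33.4 CPM in BM 3W (0.71 ± 0.27, adjusted p = 0.0703, from 0.0389 to 0.862 over the alternatives). Hey1 was at 0.389 and 0.352 CPM in BM 3W Yap-/- against 1.44 and 1.41 CPM in BM 3W (-1.92 ± 1.11, adjusted p = 0.205), with no overlap of the libraries at these low counts. Dll4 was at 0.146 and 0.251 CPM in BM 3W Yap-/- against 0.171 and 0.270 CPM in BM 3W. The 6 falls and 0 rises stand beside 16.6% and 15% of all genes.

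In freshly isolated cells none of the 9 members passed an adjusted p of 0.05 between FH Yap-/- and FH in edgeR, where 0.489% of all genes rose and 0.454% fell. At an unadjusted p below 0.05 there was 1, Notch1, and DESeq2 called 1, also Notch1. In edgeR 1 member passed when 1 BM 1D library was left out. With the 2 groups fitted alone, edgeR called 2 of the 5 members then tested, Notch1 and Dll4, and 4251 of 11356 genes. The result in freshly isolated cells thus depends on which groups share the fit. Notch1 was at 23.7 and 23.2 CPM in FH Yap-/- against 10.7 and 8.71 CPM in FH (1.27 ± 0.29, adjusted p = 0.0808, from 3.66e-08 to 0.701 over the alternatives). Its libraries were apart by genotype. Jag1 was at 3.66 and 5.20 CPM in FH Yap-/- against 4.14 and 3.01 CPM in FH, and Hes1 at 4.28 and 4.24 CPM in FH Yap-/- against 3.58 and 3.09 CPM in FH. Dll4 was at 1.10 and 1.04 CPM in FH Yap-/- against 0.318 and 0.0791 CPM in FH (2.40 ± 1.53, adjusted p = 0.799). Notch3 had at most 4 counts and Hey1 at most 2 in any freshly isolated library.

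The interaction tested whether the Yap effect at week 3 of BM culture differed from that in freshly isolated cells. It passed for 3 members, all with a more negative effect in culture: Jag1 (-3.79 ± 0.77, adjusted p = 0.00956), Hes1 (-2.75 ± 0.53, adjusted p = 0.00788) and Notch2 (-1.31 ± 0.28, adjusted p = 0.0127). Over all genes 8.84% were lower and 8.04% higher. Yap1 itself passed the interaction in the same edgeR quasi-likelihood fit (-1.71 ± 0.27, adjusted p = 0.00314). Its log2 change was -3.61 in BM 3W Yap-/- against BM 3W and -1.90 in FH Yap-/- against FH. The depth of Yap1 loss thus differed between the settings, and its part in the members' interactions was not tested. The calls of Jag1 and Hes1 held throughout, and that of Notch2 was lost without FH 2 or either FH Yap-/- library (adjusted p from 7.61e-05 to 0.0679). Notch3 (-5.23 ± 1.65, adjusted p = 0.056) and Heyl (-5.32 ± 1.73, adjusted p = 0.0583) missed the threshold, with adjusted p from 0.000276 to 0.438 and from 6.89e-05 to 0.429 over the alternatives.

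The Dll4 value in LBDXL cells rested on 1 library. Dll4 was at 5.60 and 0.121 CPM in LBDXL 3W against 0.171 and 0.270 CPM in BM 3W, so the 2 LBDXL 3W libraries differed 46.4 times and lay on either side of both BM 3W libraries. The fitted change was 3.66 ± 1.34 (adjusted p = 0.0457), and it was -0.84 without LBDXL 3W 1 and 4.62 without LBDXL 3W 2. Of 23 alternatives that gave it a value, the call was lost with the direction kept in 14, among them the removal of either BM 3W library, and the direction reversed in 2 (adjusted p from 0.00652 to 0.849). Endothelial genes were apart between the same libraries: Pecam1 was at 31.03 and 0.785 CPM in LBDXL 3W, Cdh5 at 37.9 and 0.725 CPM, and the endothelial receptor Notch4 at 4.92 and 0.604 CPM. The 20 sinusoidal endothelial markers summed to 277 CPM in the first LBDXL 3W library and to 25.4 CPM in the second, in which Tek, Clec4g, Oit3, Gpr182 and Vwf were at 0.

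In BM culture, Dll4, Pecam1, Cdh5 and Notch4 were higher in BM 3D than in BM 3W, while in BM 1D they differed. There Dll4 was at 0.722 and 4.17 CPM, a 5.77-fold spread, Pecam1 at 20.1 and 33.1 CPM and Cdh5 at 33.5 and 42.7 CPM. The mean of Cdh5 was 38.1 CPM in BM 1D and 46.1 CPM in BM 3D, and that of Dll4 was 2.44 and 7.26 CPM. In BM 3D, the group with the highest mean of Dll4, Pecam1 was at 28.4 and 40.2 CPM, Cdh5 at 39.2 and 52.9 CPM and Notch4 at 5.75 and 11.4 CPM. In BM 3W Pecam1 was at 0.240 and 0.928 CPM, Cdh5 at 1.71 and 1.59 CPM and Notch4 at 0.686 and 0.809 CPM. The whole list of 20 endothelial markers had 2 members up and 9 down in BM 3W against FH, where 33% of all genes rose and 26.1% fell. The 2 that rose were Stab1 (4.03 ± 0.82) and Eng (2.53 ± 0.56). In BM 3W against BM 3D 1 of the list rose, 9 fell and 10 did not pass, where 13.5% of all genes rose and 10.9% fell. The sum of the list was 315 and 340 CPM in BM 3W, 289 and 452 CPM in BM 3D, and 185 and 149 CPM in FH. The part of endothelial RNA in the Dll4 values was not tested.

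**Figure D4:**
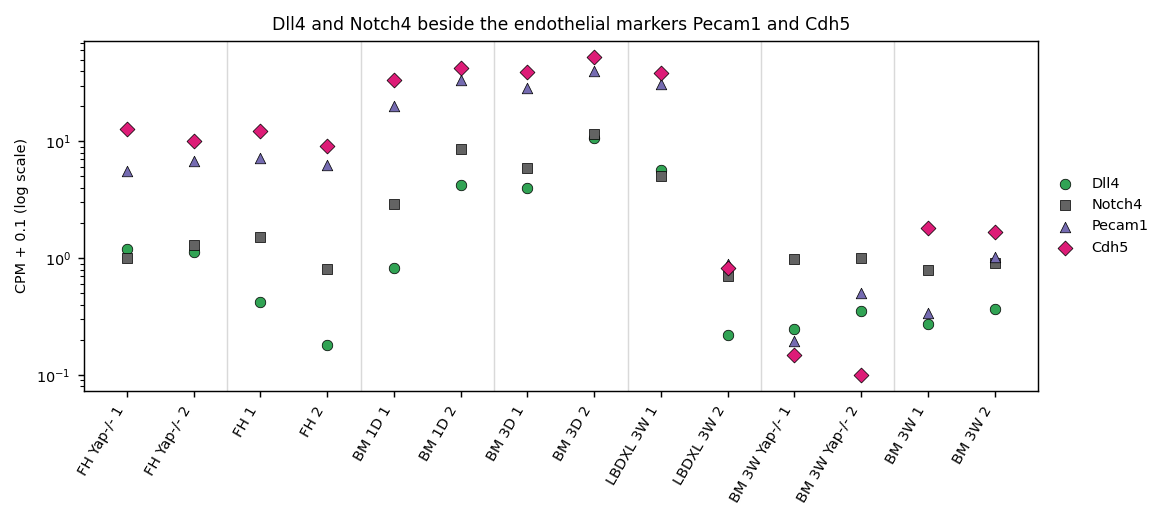
Dll4 and Notch4 with the endothelial markers Pecam1 and Cdh5 in each of the 14 libraries, as TMM-scaled CPM plus 0.1 on a log scale. All 4 genes are high in the BM 3D libraries and in LBDXL 3W 1, and low in LBDXL 3W 2, BM 3W Yap-/- and BM 3W.

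Other genes of the pathway were listed by role. Of 19 genes of the nuclear complex and co-repressors, 7 rose and 2 fell in BM 3W against FH, where 33% of all genes rose and 26.1% fell, so the share that rose was near that of all genes. Rbpj, the DNA-binding partner of the receptors, was at 86.0 and 76.4 CPM in BM 3W against 23.9 and 24.3 CPM in FH (1.75 ± 0.24, adjusted p = 0.000123). Maml2, a Mastermind co-activator, was at 20.6 and 19.4 CPM in BM 3W against 0.557 and 0.317 CPM in FH (5.50 ± 0.72, adjusted p = 9.82e-05), and the co-repressor Ctbp2 rose by 5.47 ± 0.63 (adjusted p = 4.77e-05). Without Yap at week 3, 0 of the 19 rose and 6 fell, against 15% and 16.6% of all genes: Rbpj was at 28.4 and 17.9 CPM in BM 3W Yap-/- against 86.0 and 76.4 CPM in BM 3W (-1.81 ± 0.24, adjusted p = 0.000601), and Maml2 at 2.43 and 1.51 CPM in BM 3W Yap-/- against 20.6 and 19.4 CPM in BM 3W (-3.34 ± 0.61, adjusted p = 0.00302). In LBDXL 3W against BM 3W 2 rose and 5 fell, against 21.1% and 23.7% of all genes, among them Rbpj (-1.77 ± 0.24) and Maml2 (-5.32 ± 0.69). Rbpj and Maml2 also passed the interaction (-1.97 ± 0.33 and -4.65 ± 0.93).

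Of 13 further genes listed by name as targets, 8 were tested. Whether each of them answered to Notch in these cells was not tested. In BM 3W against FH 5 rose and 1 fell, against 33% and 26.1% of all genes, with Id1 at 4.51 ± 0.63 and Id3 at 3.78 ± 0.53, both inhibitors of bHLH factors that also answer to other pathways, and Hes6 at -1.79 ± 0.47. In BM 3W Yap-/- against BM 3W 0 rose and 4 fell, and in LBDXL 3W against BM 3W 0 rose and 4 fell, where 16.6% and 23.7% of all genes fell. Nrarp, a feedback inhibitor of Notch signalling, was at 0.292 and 0.251 CPM in BM 3W Yap-/- against 3.70 and 7.79 CPM in BM 3W (-4.37 ± 1.17, adjusted p = 0.0168). Hey2 fell by 4.37 ± 1.46 without Yap at week 3 (adjusted p = 0.0453), with 0.0972 and 0 CPM in BM 3W Yap-/- against 1.54 and 0.749 CPM in BM 3W.

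Of 7 other receptors and ligands, 4 were tested. In these comparisons with BM 3W, Dll1 moved against Jag1: it was at 3.74 and 5.43 CPM in BM 3W Yap-/- against 1.03 and 0.689 CPM in BM 3W (2.41 ± 0.46, adjusted p = 0.00374), and at 4.70 and 8.64 CPM in LBDXL 3W (2.95 ± 0.47 against BM 3W, adjusted p = 0.000707). It fell by 1.56 ± 0.46 in BM 3W against FH (adjusted p = 0.0138). The opposite course was not general. In LBDXL 3W the mean was 6.67 CPM for Dll1 and 8.16 CPM for Jag1, against 2.54 and 3.57 CPM in FH, where Jag1 did not pass. Notch4 rose in BM 1D (2.38 ± 0.87, adjusted p = 0.0457) and BM 3D (2.99 ± 0.88, adjusted p = 0.0196) against FH. Among 5 glycosyltransferases that modify the receptors, 3 rose and 1 fell in BM 3W against FH, beside 33% and 26.1% of all genes. Lfng, a Fringe enzyme, was at 7.27 and 9.19 CPM in BM 3W against 1.27 and 0.475 CPM in FH (3.23 ± 0.81, adjusted p = 0.00557), and it fell in BM 3W Yap-/- (-3.37 ± 0.80) and LBDXL 3W (-6.14 ± 0.98) against BM 3W.

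The proteases and turnover genes moved in both directions. Of 10 proteases and gamma-secretase subunits, 5 rose and 4 fell in BM 3W against FH, where 33% of all genes rose and 26.1% fell. Psen2, a catalytic subunit, was at 14.6 and 12.3 CPM in BM 3W against 94.2 and 88.6 CPM in FH (-2.76 ± 0.36, adjusted p = 9.07e-05), and Adam10 rose by 1.47 ± 0.24 (adjusted p = 0.000409). Psen2 was at 44.3 and 64.1 CPM in BM 3W Yap-/- (2.01 ± 0.35 against BM 3W). Of 15 endocytosis and turnover genes, 14 were tested, and 7 rose and 4 fell in BM 3W against FH, the falls near the share of all genes, with Dtx3, a Deltex ubiquitin ligase, at 5.10 ± 0.44 and Numbl, a relative of the Notch inhibitor Numb, at 5.61 ± 0.61.

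Markers of other cell types differed between the same groups. The 18 stellate cell, mural and fibroblast markers summed to 593 and 491 CPM in BM 3W Yap-/-, 649 and 307 CPM in LBDXL 3W, and 11672 and 15132 CPM in BM 3W, and to 134 and 112 CPM in FH. In BM 3W against FH 17 of 18 rose and 0 fell, in BM 3W Yap-/- against BM 3W 0 rose and 16 fell, and in LBDXL 3W against BM 3W 0 rose and 15 fell. Of all genes 33% rose and 26.1% fell in BM 3W against FH. The shares were 15% and 16.6% in BM 3W Yap-/- against BM 3W, and 21.1% and 23.7% in LBDXL 3W against BM 3W. Pdgfrb was at 13.1 and 13.1 CPM in BM 3W Yap-/- and 13.8 and 5.92 CPM in LBDXL 3W, against 188 and 100 CPM in BM 3W, and Des at 15.1 and 18.8 CPM in BM 3W Yap-/- against 99.6 and 207 CPM in BM 3W. The 13 macrophage markers summed to 378 and 433 CPM in BM 3W Yap-/-, 5.97 and 5.32 CPM in LBDXL 3W, and 3138 and 4006 CPM in BM 3W, with 9 of the 13 detected in each LBDXL 3W library, Clec4f at 0 in both and Adgre1 at 0 in the second. Of the stellate and mural list, Cspg4 was at 0 in all FH, BM 1D and BM 3D libraries. It had 7 counts in BM 3W Yap-/-, 2 in LBDXL 3W and 48 in BM 3W. Cspg4, among the 18 counted above, passed the filter on low counts only through BM 3W, the group where it was high. The 16 cholangiocyte and progenitor markers summed to 566 and 435 CPM in BM 3W Yap-/-, 388 and 69.4 CPM in LBDXL 3W, and 4792 and 5618 CPM in BM 3W. Of the 14 tested, 3 fell, 0 rose and 11 did not pass in BM 3W Yap-/- against BM 3W (median log2 change -1.21), and 9 fell, 0 rose and 5 did not pass in LBDXL 3W against BM 3W. The 3 falls without Yap were near the share of all genes. Of the 13 macrophage markers, 10 fell and 1 rose in BM 3W Yap-/-, and 11 fell and 0 rose in LBDXL 3W, against BM 3W. The part of these cell types in the values of Notch3, Jag1, Heyl, Hes1 and the other members was not tested.

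The members' patterns over the groups were alike to different degrees. Over the 7 group means of log2 CPM, which share the same libraries, Pearson's r was 0.98 between Jag1 and Hes1, 0.95 between Notch3 and Hey1, 0.92 between Hes1 and Heyl and 0.89 between Notch2 and Jag1. Dll4 was the member least like the others, with r of 0.38 to Notch1 at most and -0.55 to Notch3 at least. Among all genes with at least 5 CPM in a group, the gene most like Notch1 was Rell1 (r = 0.99), the gene most like Notch2 was Lats2 (0.99) and the gene most like Notch3 was Cdkn2a (0.99). For the ligands these were Smim15 for Jag1 (0.99), Fstl1 for Jag2 (1.00) and Cnn3 for Dll4 (0.94), with Notch4 next for Dll4 (0.91). For the targets they were Stab1 for Hes1 (0.99), Itgb5 for Hey1 (0.99) and Plac8 for Heyl (1.00).

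Ordered by mean level, BM 3W was the first group for Notch2, Notch3, Jag1, Jag2, Hes1, Hey1 and Heyl, and in each case its library range was apart from the next group's. The next group was BM 3D for Notch2, Jag1, Hes1, Hey1 and Heyl, and BM 3W Yap-/- for Notch3 and Jag2. For Jag1 the 5 groups below BM 3D overlapped from neighbour to neighbour. Notch1 was highest in BM 3W Yap-/- (55.2 ± 8.76 CPM) and BM 3D (52.5 ± 16.2 CPM), which overlapped, and lowest in FH (9.72 ± 1.44 CPM), which was apart from FH Yap-/- (23.4 ± 0.336 CPM). The first 4 groups of Dll4 (BM 3D, LBDXL 3W, BM 1D and FH Yap-/-) overlapped from neighbour to neighbour, as did the last 3.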

How the data were processed

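RNA from mouse hepatocytes was sequenced as stranded, poly(A)-selected paired-end libraries, per the labels' protocols. The authors deposited read counts per gene and FPKM values. The submitters' processing notes name Trimmomatic, HISAT2, Cufflinks, HTSeq, DESeq and GRCm38.p6, without versions. The sources used here do not give the strand setting of the counting, so antisense overlap cannot be told apart. Of 21878 genes, 4326 were at 0 in all libraries, and 27 symbols altered by a spreadsheet were restored from their NCBI gene IDs.

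Counts were scaled by TMM and fitted with edgeR 4.0.16 (quasi-likelihood test, filterByExpr, all 14 libraries in 1 fit) in R 4.3.3. P-values were adjusted by Benjamini-Hochberg over 14100 genes, with a threshold of 0.05, and 10 comparisons were made. Standard errors are the fold change divided by the root of F. FPKM were used to compare levels between genes and, as log2(FPKM + 1), with limma 3.58.1. Alternatives were DESeq2 1.42.0, 2 other scalings, no filter, the compared groups alone, a replicate block, a pseudocount of 0.1, an FPKM minimum mean of 0.5 or none, and leaving out libraries. The edgeR fit was tested on simulated data drawn with the same spread in every group. That test does not cover the unequal noise of these groups (chi-square per degree of freedom 4.04 to 235).

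Depth was 15501005 to 21220365 counts a library, and 3 counts, the limit that a count of 0 allows, equal 0.0898 to 0.240 CPM. Intervals cover counting error only. Other genes were named by the smallest p in each list, at most 4 a list, and the gene most alike each member was taken among genes with at least 5 CPM in a group. The members and lists were chosen with earlier results of these data known.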

Additional observations from a re-analysis of the deposited data

Results flagged for a closer look

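The effect of lacking Yap differed between cells at week 3 of BM culture and freshly isolated cells for 3 members, by the interaction term of edgeR's quasi-likelihood fit adjusted over all tested genes. For Jag1 the difference of the 2 effects was -3.79 on the log2 scale (adjusted p = 0.00956), from -3.49 in culture and 0.31 in freshly isolated cells. For Hes1 it was -2.75 (adjusted p = 0.00788), from -2.39 and 0.35. For Notch2 it was -1.31 (adjusted p = 0.0127), from -1.26 and 0.05. Yap1 itself passed the same term at -1.71 (adjusted p = 0.00314), from -3.61 and -1.90, so its loss was deeper in culture. The part of that deeper loss in the 3 differences was not tested. Both libraries without Yap lay below both BM 3W libraries for each of the 3 members in culture. In the same culture comparison 16 of 18 stellate and mural, 10 of 13 macrophage and 3 of 14 cholangiocyte and progenitor markers fell, beside 16.6% of all genes. Cspg4, among those 18, passed the filter on low counts only through BM 3W. The share of the cholangiocyte and progenitor list was near that of all genes. The part of these cell types in the 3 differences was not tested.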

How the results depend on the processing

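Over 24 alternatives, 2075 values were recomputed: 1897 kept their direction and side of the threshold, 66 lost the threshold, 75 gained it and 37 reversed. The cause of these changes was not tested. Where both groups were at 0 no value was given. All fold changes are log2.

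With DESeq2, BM 3D against BM 1D had 1750 genes and 2 members called (edgeR 742 and 0), FH Yap-/- against FH 374 and 1 (133 and 0), the interaction 5 members (3) with Jag2 at -0.74 (0.73), and LBDXL 3W against FH 2 members (1). With the compared groups alone, FH Yap-/- against FH had 4251 of 11356 genes and 2 of the 5 members tested, Notch1 and Dll4. The interaction then had 4551 genes (2380) and 5 members. The counts of genes were 0 in BM 3D against BM 1D, 3997 in LBDXL 3W against BM 3W (6323) and 1759 in LBDXL 3W against FH (3009).

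The FPKM filter left 6 of the 9 members to test (not Jag2, Hey1 and Heyl), so its counts of members are out of 6. With log2(FPKM + 0.1), members called were 5 in BM 3W against FH (8 of 9, of which the same 5 were tested), 1 in FH Yap-/- against FH, 5 in the interaction with 4061 genes, 4 in LBDXL 3W against BM 3W (7 of 9, of which 5 were tested and Dll4 lost its call) with Notch1 at -0.63, and 2 in LBDXL 3W against FH. With log2(FPKM + 1) they were 2 in BM 3D against BM 1D, 5 in BM 3W against FH and 2 in LBDXL 3W against FH. The interaction then had 4244 genes, and Notch1 was at -0.51 in LBDXL 3W against BM 3W (limma, adjusted p = 0.0437). Without the FPKM filter, with 9 tested, they were 1 in BM 3D against BM 1D, 8 in BM 3W against BM 3D (5), 7 in the interaction with 5532 genes and Jag2 at -1.05, and 2 in LBDXL 3W against FH with Heyl at 0.0123. There, BM 3W Yap-/- against BM 3W had 7098 genes (4459), FH Yap-/- against FH 269 with Heyl at 0.00474, and Notch1 was at -0.51 in LBDXL 3W against BM 3W.

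Without the count filter the interaction had 5 members. With total counts alone, BM 3D against FH had 8613 genes (5705), Heyl was at 0.00839 in FH Yap-/- against FH, the interaction had 6 members with Jag2 at -0.51, Notch1 was at -0.64 in LBDXL 3W against BM 3W, and LBDXL 3W against FH had 5 members with Heyl at 0.43. Without LBDXL 3W 1 and BM 3W 2 together, BM 3D against BM 1D had 1186 genes and 1 member, FH Yap-/- against FH 234 genes, LBDXL 3W against FH 1830 genes with Dll4 at -0.68 and Hes1 at -0.32, and LBDXL 3W against BM 3W 4 members with Dll4 at -0.48. Dll4 was then at 0.20 in BM 3W Yap-/- against BM 3W and at -0.20 in BM 3W against FH.

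Leaving out 1 library at a time gave 3842 to 6517 genes and 1 to 5 members in BM 1D against FH, 178 to 1210 and 0 to 2 in BM 3D against BM 1D, 3435 to 6056 and 3 to 6 in BM 3D against FH, and 1664 to 4067 and 2 to 5 in BM 3W against BM 3D. It gave 1938 to 5165 genes in BM 3W Yap-/- against BM 3W, 800 to 3027 in the interaction and 3993 to 6549 in LBDXL 3W against BM 3W. FH Yap-/- against FH had 13 to 231 genes and 0 to 1 members, and LBDXL 3W against FH 1178 to 3171 and 1 to 3. Directions that turned were those of uncalled values and of Dll4 in LBDXL 3W against BM 3W (-0.84 to 4.62). In BM 1D against FH, Hey1 ran from -0.73 to 0.92 and Heyl from -0.89 to 2.004. In BM 3D against BM 1D, Heyl ran from -0.54 to 2.35, Hey1 from -4.05 to 2.93 and Notch2 from -0.0728 to 0.23. In BM 3D against FH, Hey1 ran from -3.76 to 3.22 and Notch3 from -4.28 to 1.72. Dll4 ran from -0.58 to 0.20 in BM 3W Yap-/- against BM 3W and from -0.45 to 1.42 in BM 3W against FH. In FH Yap-/- against FH, Heyl ran from -1.44 to 0.67, Notch3 from -0.54 to 1.17 and Notch2 from -0.0261 to 0.13. In LBDXL 3W against FH, Dll4 ran from -0.68 to 5.08, Hes1 from -0.32 to 0.90 and Heyl from -1.61 to 0.66. Jag2 ran from -2.22 to 1.67 in the interaction.

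Differences between replicates 1 and 2 were weakly correlated in most of 21 pairs of groups (r from -0.0231 to 0.461, 5 over 0.1). This check cannot exclude that replicate numbers pair the samples of some groups. With the replicate block, the count of called genes was 6531 in BM 1D against FH, 8658 in BM 3W against FH, 6624 in LBDXL 3W against BM 3W, 4969 in BM 3W Yap-/- against BM 3W and 2700 in the interaction, all within 1.5 times of the counts without it. With 2 libraries a group and few counts, values of Notch3, Jag2, Hey1, Heyl and Dll4 near 3 counts are set by single reads.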
